A study of Homo sapiens and Mus musculus with 69 samples.

Results

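Keratin genes were described across all libraries of a bulk RNA-Seq study of Notch signaling in small cell lung cancer. The members were all genes whose symbol consists of KRT, digits and an optional letter A to C, without the hair keratin-associated proteins and without keratin pseudogenes. They numbered 52 of the 20516 genes in the table of the human cell lines and, in title case, 35 of the 18501 genes in the table of the mouse cell line KP1. The human members comprised 28 type I and 24 type II keratins, and the mouse members 16 type I and 19 type II keratins.

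Keratins are the intermediate filament proteins of epithelial cells. Each filament is built from obligate pairs of an acidic type I and a basic or neutral type II chain, such as *KRT18* with *KRT8* in simple epithelia or *KRT14* with *KRT5* in the basal layer of stratified epithelia. Filaments are anchored at desmosomes through plakin proteins, and pathologists use individual keratins to tell epithelial tumor types apart. Small cell lung cancers are neuroendocrine carcinomas that commonly contain simple epithelial keratins, and cell lines derived from them often grow in suspension.

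The human libraries came from 4 small cell lung cancer cell lines, in groups of 3 libraries, 60 in all. H82 cells were studied as parental cells, as cells with a doxycycline-inducible vector for *N1ICD*, the intracellular domain of *NOTCH1* (*NOTCH1* in the labels), without and with doxycycline, and as the same *N1ICD* cells with *REST* KO or STING KO, each without and with doxycycline. H524 cells were parental, carried the *N1ICD* vector, or carried an inducible vector for the transcriptional repressor *REST*, and both vectors were studied without and with doxycycline. H69 cells were parental or carried the *N1ICD* vector without and with doxycycline. COR-L88 cells were treated with DMSO, with the LSD1 inhibitor TAS1440 or with TAS1440 plus a γ-secretase inhibitor (GSI), which blocks Notch receptor cleavage, and COR-L88 cells with STING KO were treated with DMSO or TAS1440. KP1 cells, 9 libraries in all, received DMSO, TAS1440 or TAS1440 plus GSI. The *REST* KO cells and the STING KO cells of both lines included single-cell clones, and the labels do not say whether a given library came from a clone. Where it did, KO and clone cannot be told apart. Cells overexpressing *N1ICD* or *REST* were harvested as the adherent fraction of long cultures with doxycycline, according to the methods. A comparison with doxycycline therefore holds the agent, the vector, time in culture and the choice of adherent cells together, which cannot be told apart, and no parental cells were given doxycycline. No label states that the 3 libraries of a group came from separate cultures, so that the *P* values measure the spread between these libraries, which may be technical.

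All gene values are log2(RPKM + 1), which is per length and allows genes of a library to be ranked, and the log2 difference between 2 groups understates the change of genes near 0. The 2 tables were normalized separately, and levels were not compared between them. In each cell line 1 limma model held all its groups, and keratins were called higher or lower where the adjusted *P* was below 0.05 and the log2 difference was 1 or more in size. Testing was limited to genes that reached a value of 1 in 3 or more libraries of the cell line, which left 10 keratins in H82, 12 in H524, 14 in H69, 11 in COR-L88 and 6 in KP1. Of these, 5, 8, 5, 4 and 1 passed this filter only through libraries with doxycycline or TAS1440. In H82 they were *KRT4*, *KRT16*, *KRT19*, *KRT81* and *KRT86*. In H524 they were *KRT8*, *KRT9*, *KRT16*, *KRT17*, *KRT19*, *KRT75*, *KRT80* and *KRT81*. In H69 they were *KRT5*, *KRT14*, *KRT17*, *KRT75* and *KRT81*, in COR-L88 *KRT4*, *KRT7*, *KRT81* and *KRT86*, and in KP1 *Krt80*. The filter favored genes that were higher in some treated group, so that their calls and the counts of called keratins are descriptive. In bulk RNA, fewer cells with a keratin and less keratin RNA per cell cannot be told apart.

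Read counts are not part of the tables, and the relative size of the libraries, read from the steps between their lowest values, was 0.669 to 1.53 times the median of the human and 0.871 to 1.07 times the median of the KP1 libraries. *NOTCH1* was at 1.45, 0.88 and 1.15 in the 3 H82 *N1ICD* libraries without and 4.75, 4.26 and 5.56 with doxycycline, listed by library number as all values here, at 0.79, 1.28 and 1.52 without and 7.58, 8.29 and 8.31 with it in H524 and at 0.38, 0.39 and 0.39 without and 8.07, 7.93 and 7.97 with it in H69. *REST* was lower in H82 *REST* KO libraries with doxycycline (4.95, 4.95 and 5.89) than in *N1ICD* libraries without the KO (6.48, 6.13 and 6.33), and mRNA of *STING1*, listed as *TMEM173*, was not lower in the H82 libraries labelled STING KO (1.27, 1.53 and 2.04 with doxycycline, against 1.07, 1.17 and 1.10). The study showed immunoblots of single-cell *STING1* KO clones of H82 and COR-L88 cells. Levels of mRNA alone do not tell whether the protein was lost. Among the KP1 libraries with TAS1440, library 6 stood apart, with higher *Krt7* and *Krt8* than libraries 4 and 5.

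The keratins lie in 2 clusters in each genome. In GRCh37, 25 members, all type II keratins and the type I keratin *KRT18*, lie on chr12:52562780-53346690, and the other 27 type I keratins on chr17:38810917-39781094. In GRCm38, 20 mouse members lie on chr15:101347444-102032027, again with *Krt18* as the single type I keratin, and 15 on chr11:99232761-100269871. *KRT8* and *KRT18* are neighbors on opposite strands that overlap by 1084 bases, *KRT81* lies over 5622 bases within *KRT86* on the opposite strand, and *KRT7* and *KRT86* overlap by 2887 bases on 1 strand. Of the 50-base windows of the transcripts, 42.1% of *KRT81*, 34.5% of *KRT86*, 21.6% of *KRT16* and 12.5% of *KRT14* also occur in another gene of the table, so that reads may have been split between *KRT81* and *KRT86* and between *KRT14* and *KRT16*. *KRT18* shared 30.1% of its windows with any annotated gene, mostly its pseudogenes, *KRT17* 17.4% and *KRT8* 1.88%, and the values of these genes are uncertain to that extent. Whether counting used the strand is not given in the sources used here, and values of the overlapping pairs are uncertain as well.

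Promoters of 32 of the 52 human keratins were found in a RefSeq table of promoters (GRCh38.p14, a later build than that of the expression table). The 250 bases before a listed transcription start are shown for *KRT8*, *KRT5* and *KRT75*, which were higher in H69 cells with *N1ICD*, and for *KRT9*, which was lower there. They run 5′ to 3′ of the gene, all on the minus strand. A gene can have other starts, and whether the listed start is the main one in these cells was not tested. Capitals mark a GC box.
KRT8 chr12:52926470-52926719: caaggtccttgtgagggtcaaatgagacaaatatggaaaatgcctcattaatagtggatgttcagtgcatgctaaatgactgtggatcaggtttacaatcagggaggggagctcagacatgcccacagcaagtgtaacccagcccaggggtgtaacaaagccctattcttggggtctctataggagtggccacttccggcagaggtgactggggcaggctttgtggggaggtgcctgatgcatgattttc
KRT5 chr12:52520395-52520644: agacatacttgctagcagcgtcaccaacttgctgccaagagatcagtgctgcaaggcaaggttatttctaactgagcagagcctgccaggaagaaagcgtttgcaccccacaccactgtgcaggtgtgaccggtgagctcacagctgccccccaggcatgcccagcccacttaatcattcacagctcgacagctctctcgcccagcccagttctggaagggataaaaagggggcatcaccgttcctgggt
KRT75 chr12:52434372-52434621: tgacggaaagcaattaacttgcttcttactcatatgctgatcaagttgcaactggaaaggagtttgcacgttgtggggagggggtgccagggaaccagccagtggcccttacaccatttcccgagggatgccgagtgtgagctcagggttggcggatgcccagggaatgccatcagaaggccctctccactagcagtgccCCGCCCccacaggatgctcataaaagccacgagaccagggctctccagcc
KRT9 chr17:41572060-41572309: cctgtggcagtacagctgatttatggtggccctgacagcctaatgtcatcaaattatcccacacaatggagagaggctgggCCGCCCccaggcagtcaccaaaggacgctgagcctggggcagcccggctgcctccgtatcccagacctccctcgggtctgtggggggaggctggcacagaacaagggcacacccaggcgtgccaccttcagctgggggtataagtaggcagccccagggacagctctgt
On both strands, the GC box GGGCGG, printed here in its reverse form, occurred in 4 of the 32 keratin promoters (12.5%; *KRT9*, *KRT37*, *KRT38* and *KRT75*) and in 42.3% of all 27303 promoters in the table. It began 50 bases before the start of *KRT75* and 169 bases before that of *KRT9*, a keratin that rose and one that fell in the same cells. The AP-1 motif TGANTCA occurred in 0 of 32 and in 6.6% of all promoters, the core motif TGGGAA of *RBPJ*, the DNA-binding partner of *N1ICD*, in 4 of 32 (12.5%) and in 21.1% of all, and TATAAA in 18 of 32 (56.2%) and in 11.1% of all. None of the 4 sequences shown holds the AP-1, *RBPJ* or TATAAA letters, which says only that they are not in these windows and nothing about other starts of these genes.

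Most keratins were near 0 in every library. *KRT27*, *KRT33A* and *KRT37* were listed at 0 in all 60 human libraries, 28 of the 52 members did not reach a value of 1 in any library, 15 reached 2 and 10 reached 5. The 10 were *KRT17* (highest value 13.24), *KRT18* (10.69), *KRT8* (10.02), *KRT80* (9.86), *KRT9* (7.18), *KRT15* (6.90), *KRT19* (6.68), *KRT5* (6.20), *KRT4* (5.67) and *KRT81* (5.61). *KRT10*, the type I keratin of suprabasal epidermis, was at 1 or more in 59 of the 60 libraries, reached 3.10 and was not called in any comparison. *KRT20*, a marker of Merkel cell carcinoma and intestinal epithelium, was above 0 in 3 human libraries and did not exceed 0.025. In KP1, 7 of 35 members reached 2 and 3 reached 5, *Krt7*, *Krt8* and *Krt18*.

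**Figure D1:**
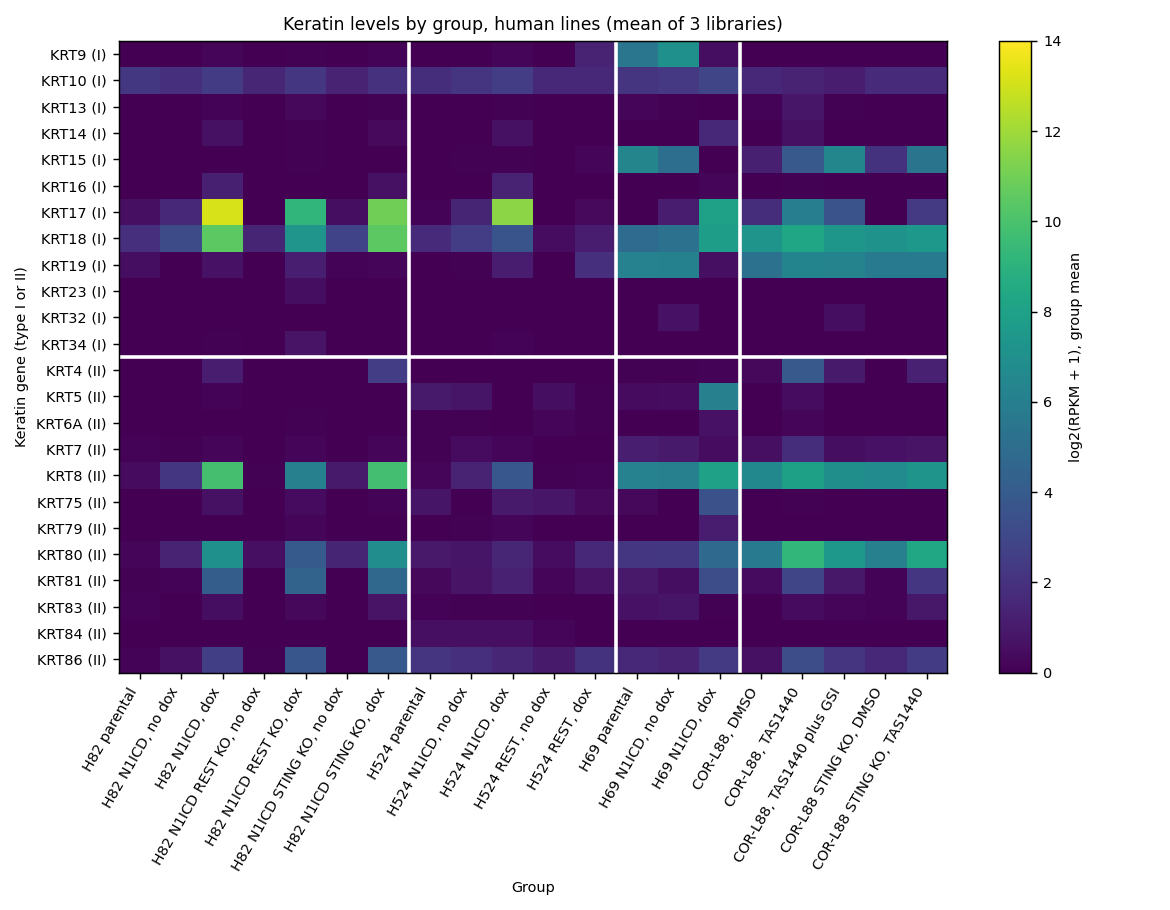
Mean log2(RPKM + 1) of the 24 keratins that reached 1 in at least 1 library, type I above type II, in the 20 groups of the human lines (3 libraries each). *KRT17* is brightest in H82 and H524 cells with *N1ICD* and doxycycline, and *KRT9* in H69 cells without doxycycline, whereas *KRT19* and *KRT15* are high both there and in COR-L88 cells with TAS1440 plus GSI.

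The sum over all keratins, given without a test, was higher with *N1ICD* or TAS1440 in all 4 human lines and lower with TAS1440 in KP1. In H82 cells the summed keratin RPKM was 11.3, 25.1 and 28.4 (lowest, median and highest library) without and 10978, 11414 and 12287 with doxycycline, which was a median of 0.726% of all RPKM. In H524 *N1ICD* cells it was 11.2, 20.4 and 32.9 without and 2200, 2427 and 5500 with doxycycline, in H69 336, 343 and 385 without and 849, 867 and 902 with it. In COR-L88 it was 304, 349 and 372 with DMSO, 891, 1444 and 2152 with TAS1440 and 616, 664 and 700 with TAS1440 plus GSI. In each of these 4 lines the groups did not overlap. In KP1 the order was opposite, with 738, 768 and 940 with DMSO and 5.18, 27.3 and 160 with TAS1440.

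With *N1ICD* overexpression in H82 cells, 8 of the 10 keratins tested rose and none fell, against 27.1% of all genes called higher or lower. Of the 8, *KRT4*, *KRT16*, *KRT81* and *KRT86* had passed the filter only through libraries with doxycycline. *KRT17*, a type I keratin of basal-like and stressed epithelium, was at 0.23, 1.91 and 2.48 without and 13.24, 13.08 and 13.09 with doxycycline, a log2 difference of 11.60 ± 0.52 (SE, adjusted *P* = 7.21e-12). Its mean of 9011 RPKM with doxycycline was 78% of all keratin RPKM and rank 23 among all genes. *KRT8* was at 0.99, 2.65 and 3.02 without and 9.86, 9.81 and 10.01 with doxycycline, a log2 difference of 7.68 ± 0.43 (SE, adjusted *P* = 1.19e-10). Its partner *KRT18* was at 2.47, 3.56 and 3.68 and 10.50, 10.32 and 10.60, with a log2 difference of 7.24 ± 0.46 (SE, adjusted *P* = 5.33e-10). In each of these genes the lowest library with doxycycline was more than 6 log2 units above the highest without it. *KRT80*, a type II keratin of differentiating epithelia, was at 0.55, 1.94 and 1.59 without and 7.61, 6.85 and 6.64 with doxycycline, a log2 difference of 5.67 ± 0.45 (SE, adjusted *P* = 1.05e-08).

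The hair keratins *KRT81* and *KRT86* also rose in H82 cells with *N1ICD*. *KRT81* was at 0.34, 0 and 0 without and 4.72, 4.20 and 3.53 with doxycycline (adjusted *P* = 1.92e-05), and *KRT86* at 0, 0.95 and 0.99 and 3.35, 2.44 and 1.96, a log2 difference of 1.93 ± 0.56 (SE, adjusted *P* = 0.00816). *KRT16* (1.10, 1.07 and 1.59) and *KRT4* (1.15, 0.65 and 1.35) were listed at 0 in all 3 libraries without doxycycline, with adjusted *P* values of 1.67e-06 and 3.11e-05. The call of *KRT4* was lost without library 7 or library 9. The 2 other tested keratins did not pass, *KRT19* at 0.28, 0.75 and 1.10 with doxycycline against 0, 0.098 and 0 without it (adjusted *P* = 0.0858) and *KRT10* with a log2 difference of 0.52 ± 0.26 (SE, adjusted *P* = 0.104). *KRT7*, a simple epithelial keratin, did not pass the filter in H82 cells.

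**Figure D2:**
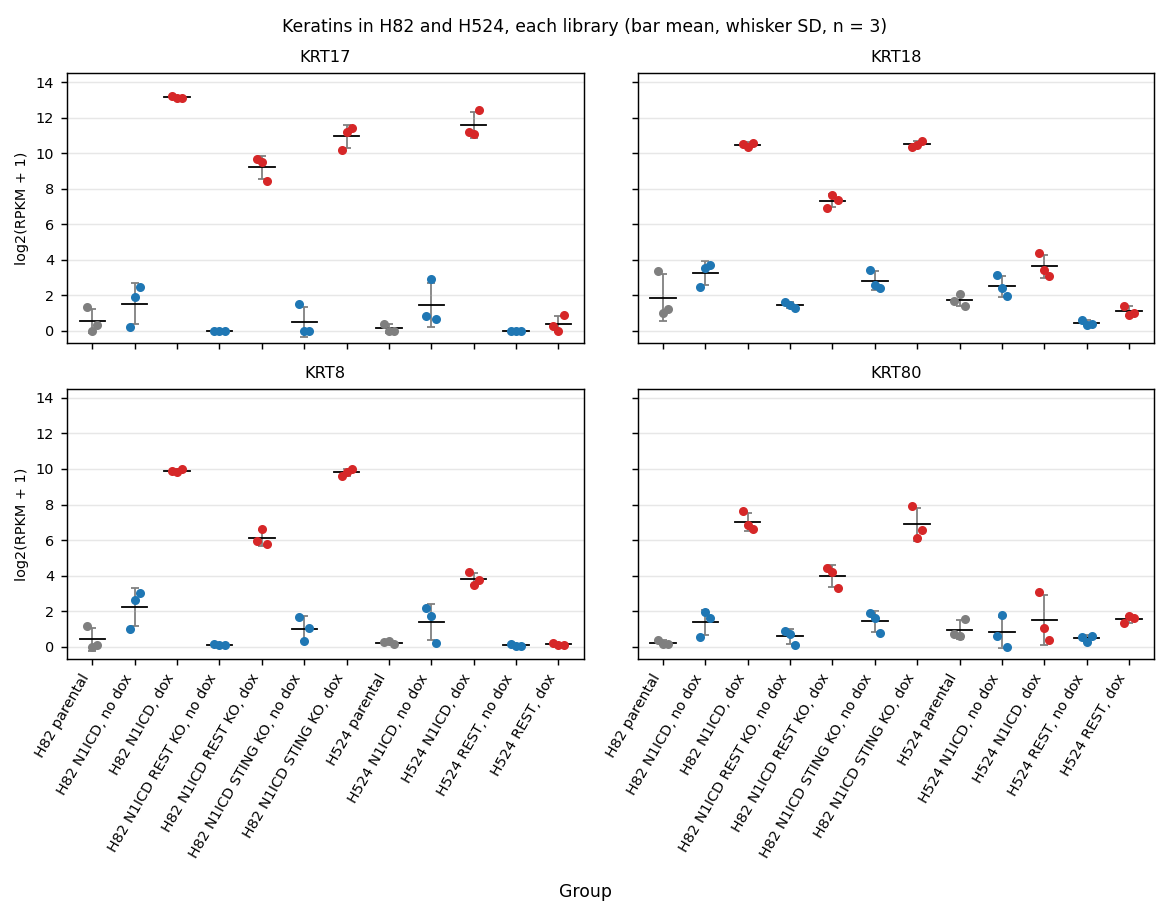
log2(RPKM + 1) of single libraries (points, with a bar at the group mean and whiskers of 1 SD, 3 libraries a group) for 4 keratins in H82 and H524 cells, by group. *KRT17* is between 8.45 and 13.24 in every library with the *N1ICD* vector and doxycycline and at most 2.90 in the libraries without doxycycline, and *KRT8* and *KRT18* reach about 10 in H82 but not in H524.

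The same comparison was made in H82 *N1ICD* cells with *REST* KO, where 7 keratins rose and none fell (29.9% of all genes were called). *KRT17* was listed at 0 in all 3 libraries without and was at 9.65, 9.50 and 8.45 with doxycycline (adjusted *P* = 7.07e-11). *KRT8* was at 0.15, 0.085 and 0.084 without and 5.95, 6.64 and 5.76 with doxycycline, a log2 difference of 6.01 ± 0.43 (SE, adjusted *P* = 1.7e-09), and *KRT18* at 1.65, 1.45 and 1.27 and 6.94, 7.65 and 7.37, a log2 difference of 5.86 ± 0.46 (SE, adjusted *P* = 5.59e-09). *KRT81* (5.45, 5.03 and 2.84 with doxycycline, listed at 0 without it), *KRT86* (3.67 ± 0.56 (SE, adjusted *P* = 2.77e-05)), *KRT80* (3.41 ± 0.45 (SE, adjusted *P* = 5.05e-06)) and *KRT19* (1.17 ± 0.32 (SE, adjusted *P* = 0.00498)) were the others. *KRT19* lost its call without library 33. *KRT16* and *KRT4* were listed at 0 in all 6 of these libraries.

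With doxycycline, 6 keratins were lower in *REST* KO than in *N1ICD* cells without the KO and none was higher, against 17.6% of all genes. The log2 differences were -3.93 ± 0.52 (SE, adjusted *P* = 1.23e-05) for *KRT17*, -3.78 ± 0.43 (SE, adjusted *P* = 2.33e-06) for *KRT8*, -3.16 ± 0.46 (SE, adjusted *P* = 3.56e-05) for *KRT18* and -3.05 ± 0.45 (SE, adjusted *P* = 4.29e-05) for *KRT80*. *KRT16* (adjusted *P* = 3.63e-06) and *KRT4* (adjusted *P* = 6.21e-05) were the others, and that of *KRT4* fell short of the threshold without library 7 or 9. *KRT16* and *KRT4* had passed the filter only through libraries with doxycycline and were at 0 in *REST* KO libraries, so that the filter favored these calls. The groups did not overlap for *KRT17*, *KRT8*, *KRT18* and *KRT80*, which is no separate support, since these were chosen as called. *KRT81* (log2 difference 0.29, adjusted *P* = 0.734) and *KRT86* (1.16, adjusted *P* = 0.114) did not pass the test. Without doxycycline *KRT8* (-2.11 ± 0.43 (SE, adjusted *P* = 0.00332)) and *KRT18* (-1.78 ± 0.46 (SE, adjusted *P* = 0.0141)) were already lower in *REST* KO cells, against 6.24% of all genes, and *KRT18* lost its call without library 5, 6 or 30. The difference between the responses to doxycycline was itself tested, and 4 keratins responded less in *REST* KO cells, against 12.9% of all genes. These were *KRT17* (-2.40 ± 0.73 (SE, adjusted *P* = 0.0312)), *KRT80* (-2.26 ± 0.64 (SE, adjusted *P* = 0.0198)), *KRT16* (-1.25 ± 0.21 (SE, adjusted *P* = 0.000389)) and *KRT4* (-1.05 ± 0.23 (SE, adjusted *P* = 0.00343)). For *KRT16* and *KRT4* this difference is the rise without the KO with its sign reversed, and is no separate result. The call of *KRT17* was lost in 8 and that of *KRT80* in 4 of 12 fits that each left out 1 library, and with a pseudocount of 0.1 the difference of *KRT17* was 0.0028 with an adjusted *P* of 1. *KRT8* (log2 difference -1.67, adjusted *P* = 0.0696) and *KRT18* (-1.38, adjusted *P* = 0.165) did not pass. *NOTCH1* was at 8.75, 9.15 and 10.74 in *REST* KO libraries with doxycycline, higher than the 4.75, 4.26 and 5.56 without the KO, and its part in these differences was not tested. Of 9 neuroendocrine markers, 4 of 8 tested were higher and 0 lower in *REST* KO than in *N1ICD* cells with doxycycline (median 2.11, summed log2 levels 37.7 to 39.4 against 18.2 to 20.6), and the response of 6 of 8 differed, all upward. Of 5 fibroblast markers, 2 of 3 tested were higher and 1 lower with doxycycline. The part of these marker differences in the keratin differences was not tested.

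In the H82 libraries labelled STING KO, 7 keratins rose with doxycycline and none fell, against 20.2% of all genes. *KRT17* was at 1.50, 0 and 0 without and 10.20, 11.19 and 11.44 with doxycycline, a log2 difference of 10.45 ± 0.52 (SE, adjusted *P* = 3.98e-11). *KRT8* was at 1.69, 0.29 and 1.05 and 9.62, 9.83 and 10.02 (8.81 ± 0.43 (SE, adjusted *P* = 3.21e-11)), and *KRT18* at 3.43, 2.61 and 2.43 and 10.35, 10.45 and 10.69 (7.67 ± 0.46 (SE, adjusted *P* = 4.18e-10)). The levels of *KRT8* and *KRT18* with doxycycline overlapped those of *N1ICD* cells without the KO, with log2 differences of -0.08 ± 0.43 (SE, adjusted *P* = 0.91) and 0.02 ± 0.46 (SE, adjusted *P* = 0.976). *KRT80* (5.44 ± 0.45 (SE, adjusted *P* = 2.9e-08)), *KRT81* (adjusted *P* = 4.49e-06) and *KRT86* (adjusted *P* = 2.53e-05) also rose. *KRT4*, a type II keratin of non-keratinizing squamous epithelium, was listed at 0 without and was at 2.91, 2.32 and 2.34 with doxycycline (adjusted *P* = 1.01e-09).

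Between the libraries labelled STING KO and *N1ICD* cells without the KO, both with doxycycline, 16.5% of all genes and 2 keratins were called. *KRT17* was lower (-2.19 ± 0.52 (SE, adjusted *P* = 0.00299)) and *KRT4* higher (1.47 ± 0.16 (SE, adjusted *P* = 3.58e-06)). *KRT4* was also the single keratin whose response to doxycycline differed, by 1.47 ± 0.23 (SE, adjusted *P* = 0.000467), against 7.12% of all genes. It had passed the filter only through libraries with doxycycline. Without doxycycline 14.4% of all genes were called, and *KRT8* was lower in the libraries labelled STING KO (-1.20 ± 0.43 (SE, adjusted *P* = 0.0373)), with overlapping groups. Its call was lost without library 5, 6, 56 or 57. In the same comparison 6 of 8 neuroendocrine markers were lower (median -1.60), with summed log2 levels of 39.7 to 43.8 against 55.5 to 56.7 without the KO, and their part was not tested. In the composition of the keratins, *KRT17* made up 78% of keratin RPKM in H82 *N1ICD* cells with doxycycline, 67.7% with *REST* KO and 45.1% in the libraries labelled STING KO.

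In H524 cells with *N1ICD*, 4 keratins of 12 tested rose and none fell, against 18.6% of all genes. Of the 4, *KRT8*, *KRT16* and *KRT17* had passed the filter only through libraries with doxycycline. *KRT17* was at 0.84, 2.90 and 0.66 without and 11.21, 11.08 and 12.42 with doxycycline, a log2 difference of 10.10 ± 0.50 (SE, adjusted *P* = 2.65e-09), and made up 98.7% of all keratin RPKM with doxycycline, at rank 65 among all genes. *KRT8* was at 2.18, 1.74 and 0.23 without and 4.18, 3.50 and 3.76 with doxycycline, a log2 difference of 2.43 ± 0.36 (SE, adjusted *P* = 0.000133). *KRT18* was at 3.15, 2.43 and 1.97 and 4.36, 3.40 and 3.11, a log2 difference of 1.11 ± 0.33 (SE, adjusted *P* = 0.0208) between groups that overlap, and was no longer called without library 24 or 25. *KRT16* was at 0.049, 0 and 0 and 1.06, 1.41 and 1.78 (1.40 ± 0.15 (SE, adjusted *P* = 4.92e-06)). The rise of type I RNA was not matched in type II RNA, and the median ratio of summed type I to type II RPKM was 145 with doxycycline, against 1.30 without it and 9.59 in H82 cells with doxycycline. *KRT19* (2.03, 0.49 and 0.79 with doxycycline, 0.31, 0 and 0 without, adjusted *P* = 0.031) stayed just under the log2 difference of 1, and *KRT80* (3.07, 1.05 and 0.37 against 0.62, 1.76 and 0) did not pass (adjusted *P* = 0.383).

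*REST* overexpression in the same line changed 2 keratins, *KRT19* and *KRT9*, both listed at 0 without doxycycline, against 1.87% of all genes. Both had passed the filter only through libraries with doxycycline, *KRT9* only through those with the *REST* vector, so that the filter favored these calls. With doxycycline *KRT19*, a type I simple epithelial keratin with a short tail, was at 2.49, 1.51 and 1.68 (adjusted *P* = 0.00784), and *KRT9*, the keratin of palmoplantar epidermis, at 1.62, 1.13 and 1.20 (adjusted *P* = 0.000419). *KRT17* was at 0.26, 0 and 0.87 with doxycycline and listed at 0 without it (adjusted *P* = 0.744), *KRT8* at 0.21, 0.12 and 0.077 against 0.14, 0.032 and 0.050 (adjusted *P* = 0.958) and *KRT18* at 1.42, 0.89 and 0.99 against 0.63, 0.33 and 0.41 (adjusted *P* = 0.342). *REST* itself was at 5.05, 5.03 and 4.90 without and 6.87, 10.72 and 9.43 with doxycycline. Compared with doxycycline in both, *N1ICD* cells had higher *KRT17* (11.19 ± 0.50 (SE, adjusted *P* = 9.43e-10)), *KRT8* (3.68 ± 0.36 (SE, adjusted *P* = 2.4e-06)), *KRT18* (2.52 ± 0.33 (SE, adjusted *P* = 3.99e-05)) and *KRT16* (1.42 ± 0.15 (SE, adjusted *P* = 3.92e-06)) and lower *KRT9* (-1.08 ± 0.14 (SE, adjusted *P* = 3.48e-05)) than *REST* cells, 5 keratins against 23.8% of all genes. Of the 5, all but *KRT18* had passed the filter only through libraries with doxycycline.

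The difference between the 2 vectors in the response to doxycycline passed for 6 keratins, against 15.6% of all genes. It was 9.72 ± 0.70 (SE, adjusted *P* = 3.61e-07) for *KRT17*, 2.37 ± 0.51 (SE, adjusted *P* = 0.00456) for *KRT8*, 1.47 ± 0.36 (SE, adjusted *P* = 0.0104) for *KRT75*, 1.40 ± 0.21 (SE, adjusted *P* = 0.000257) for *KRT16*, -1.37 ± 0.43 (SE, adjusted *P* = 0.0415) for *KRT86* and -1.08 ± 0.20 (SE, adjusted *P* = 0.00154) for *KRT9*. Of the 6, all but *KRT86* had passed the filter only through libraries with doxycycline, which favored their calls. The call of *KRT86* was lost in 11 of 12 fits that left out 1 library.

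H69 cells differed in that keratins both rose and fell with *N1ICD*. Of the 14 tested, 9 were called higher and 3 lower, against 41.8% of all genes called in either direction. Of the 9, *KRT5*, *KRT14*, *KRT17*, *KRT75* and *KRT81* had passed the filter only through libraries with doxycycline. *KRT17* was at 0.91, 1.36 and 0.93 without and 8.00, 7.95 and 8.06 with doxycycline, a log2 difference of 6.93 ± 0.12 (SE, adjusted *P* = 2.89e-10). *KRT5*, the type II keratin of basal cells, was at 0, 0.74 and 0.66 and 6.07, 6.20 and 6.10 (5.65 ± 0.25 (SE, adjusted *P* = 7.79e-08)), and its partner *KRT14* was listed at 0 without and was at 1.45, 1.63 and 1.57 with doxycycline (adjusted *P* = 5.24e-08). *KRT75*, a hair follicle keratin, was at 0.044, 0.10 and 0 and 3.25, 3.53 and 3.67 (3.43 ± 0.11 (SE, adjusted *P* = 1.14e-08)). *TP63*, the transcription factor of basal cells, was at 0.076, 0.061 and 0.072 without and 0.095, 0.072 and 0.065 with doxycycline.

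The keratins that fell in H69 cells were 3 type I keratins of the chr17 cluster. *KRT9* was at 7.08, 6.85 and 7.18 without and 0.42, 0.72 and 0.41 with doxycycline, a log2 difference of -6.52 ± 0.15 (SE, adjusted *P* = 1.6e-09). *KRT19* was at 6.00, 6.22 and 6.27 and 0.55, 0.59 and 0.59 (-5.58 ± 0.11 (SE, adjusted *P* = 6.62e-10)), and *KRT15*, a keratin of basal and progenitor cells, at 5.45, 4.61 and 5.11 without doxycycline and at 0 in all 3 libraries with it (adjusted *P* = 3.09e-08). Without doxycycline *KRT9* was the highest keratin, with 36.9% of keratin RPKM, followed by *KRT19* with 20% and *KRT8* with 19.4%. With doxycycline *KRT17* (29.3%), *KRT8* (29%), *KRT18* (26.7%) and *KRT5* (7.87%) led, and the median ratio of type I to type II RPKM went from 3.43 to 1.31.

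*KRT8* and *KRT18*, which were already high in H69 cells without doxycycline, rose less there than in H82 cells. *KRT18* was at 5.02, 5.26 and 5.33 without and 7.83, 7.89 and 7.89 with doxycycline (2.67 ± 0.09 (SE, adjusted *P* = 1.88e-08)), and *KRT8* at 5.93, 6.13 and 6.29 and 7.94, 7.98 and 8.05 (1.87 ± 0.10 (SE, adjusted *P* = 2.82e-07)). *KRT80* (2.50 ± 0.21 (SE, adjusted *P* = 5.19e-06)), *KRT81* (2.77 ± 0.46 (SE, adjusted *P* = 0.000446)) and *KRT86* (1.01 ± 0.32 (SE, adjusted *P* = 0.0165)) were also higher. *KRT86*, at 1.13, 2.14 and 0.80 without and 2.20, 2.34 and 2.55 with doxycycline, was not called without library 49, 51 or 54. *KRT7* was at 0.56, 1.19 and 1.20 without and 0.33, 0.60 and 0.48 with doxycycline (adjusted *P* = 0.0213), a log2 difference of -0.52 that was below the threshold.

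**Figure D3:**
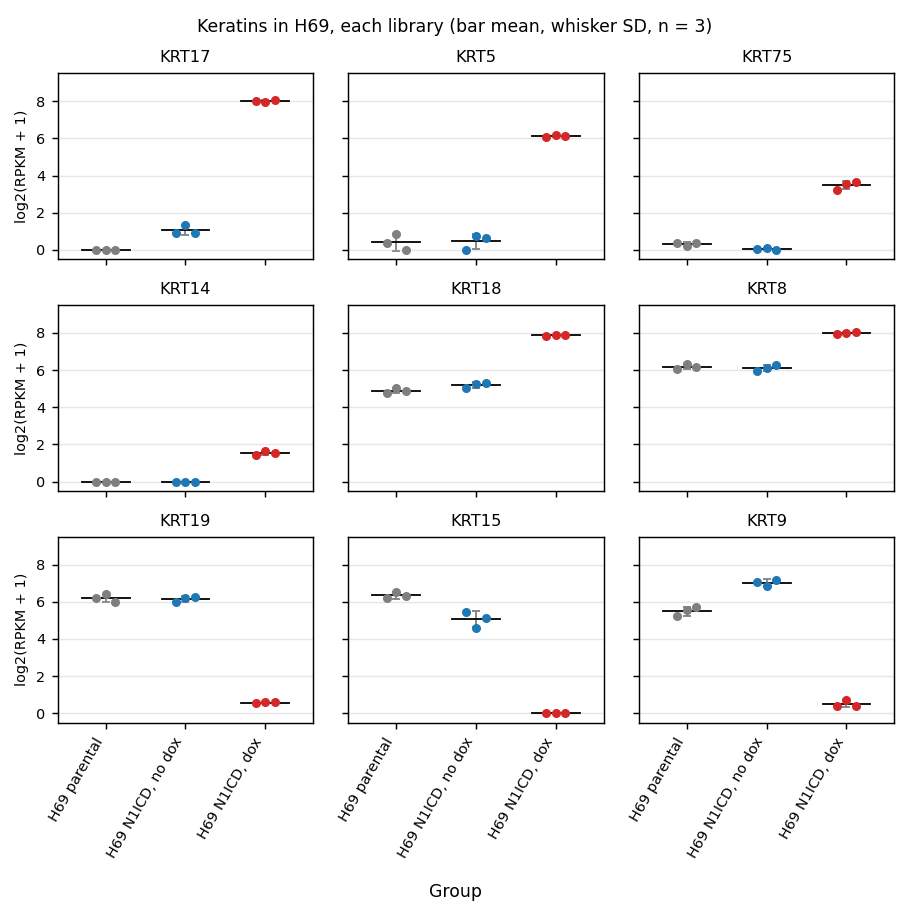
log2(RPKM + 1) of single H69 libraries (points, with a bar at the group mean and whiskers of 1 SD) for 9 keratins. *KRT9*, *KRT19* and *KRT15* are high in parental and vector cells without doxycycline and near 0 with it, and *KRT17*, *KRT5* and *KRT75* show the reverse.

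The responses to *N1ICD* were compared between the 3 lines in 1 model of all 60 human libraries. Between H69 and H82 cells 43.1% of all genes and 11 of 17 keratins differed. The response in H69 was lower for *KRT9* (-6.69), *KRT19* (-6.26), *KRT8* (-5.81), *KRT15* (-5.06), *KRT17* (-4.67), *KRT18* (-4.57), *KRT80* (-3.17), *KRT83* (-1.23) and *KRT16* (-1.06) and higher for *KRT5* (5.49) and *KRT75* (2.78), as differences between log2 differences. Between H524 and H82 cells 19.7% of all genes and 5 keratins differed, and all 5 responded less in H524. These were *KRT18* (-6.13 ± 0.51 (SE, adjusted *P* = 1.9e-13)), *KRT8* (-5.25 ± 0.49 (SE, adjusted *P* = 6.19e-12)), *KRT80* (-4.97 ± 0.66 (SE, adjusted *P* = 5.7e-08)), *KRT81* (-3.48 ± 0.79 (SE, adjusted *P* = 0.000527)) and *KRT86* (-2.30 ± 0.66 (SE, adjusted *P* = 0.00606)). The response of *KRT17* differed between H524 and H82 by -1.50 ± 0.91 (SE, adjusted *P* = 0.22), which does not show that it was alike. Between H69 and H524 cells 36.8% of all genes and 10 keratins differed, again with *KRT9* (-6.76), *KRT19* (-6.58) and *KRT15* (-5.06) lower and *KRT5* (6.45) higher in H69. *KRT9*, *KRT15* and *KRT19* were at or near 0 without doxycycline in H82 and H524 *N1ICD* cells and had no room to fall there. Given their fall in H69, the floor fixed the sign of these differences.

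Cells with a vector but without doxycycline were also compared with parental cells. In H82 6.41% of all genes and *KRT8* were called, with *KRT8* at 1.15, 0 and 0.074 in parental and 0.99, 2.65 and 3.02 in *N1ICD* cells without doxycycline (1.81 ± 0.43 (SE, adjusted *P* = 0.00882)), overlapping groups whose call was lost without library 5 or 6. In H524 12.1% of all genes were called with the *N1ICD* vector, among them *KRT8* (1.16 ± 0.36 (SE, adjusted *P* = 0.0297); parental 0.25, 0.30 and 0.12), which was lost in 5 of 6 fits that left out 1 library. With the *REST* vector 0.264% of all genes and 0 keratins were called by limma, with 2 keratins, *KRT18* (-1.26) and *KRT86* (-1.10), at an unadjusted *P* under 0.05. In H69 5.27% of all genes and 3 keratins were called, with *KRT9* higher (1.54 ± 0.15 (SE, adjusted *P* = 0.000166); parental 5.22, 5.57 and 5.70), *KRT15* lower (-1.29 ± 0.19 (SE, adjusted *P* = 0.00158); parental 6.20, 6.55 and 6.29) and *KRT17* listed at 0 in all 3 parental libraries (adjusted *P* = 0.000298). The call of *KRT17* was lost without library 50. *NOTCH1* was at 0.041, 0.0073 and 0.0062 in H82 parental libraries, below that in vector cells without doxycycline, and its part was not tested.

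TAS1440 raised 9 of the 11 keratins tested in COR-L88 cells and lowered none, against 22.8% of all genes. Of the 9, *KRT4*, *KRT7*, *KRT81* and *KRT86* had passed the filter only through libraries with TAS1440. *KRT80* was at 5.48, 5.61 and 6.01 with DMSO and 9.86, 9.38 and 8.56 with TAS1440, a log2 difference of 3.57 ± 0.34 (SE, adjusted *P* = 1.15e-06), and became the highest keratin, from 15.1% to 44% of keratin RPKM. *KRT17* was at 2.05, 2.18 and 1.29 and 8.42, 5.60 and 3.93 (4.14 ± 0.88 (SE, adjusted *P* = 0.00119)), with library 13 far above the others. *KRT4* was at 0.34, 0.41 and 0.18 and 5.67, 2.77 and 3.22 (3.58 ± 0.58 (SE, adjusted *P* = 0.000142)), again highest in library 13. Without library 13 the log2 differences were 2.92 for *KRT17* and 2.69 for *KRT4*, with adjusted *P* values of 0.0026 and 5.21e-05.

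*KRT15* was at 1.32, 1.33 and 1.03 with DMSO and 2.96, 4.41 and 4.33 with TAS1440 (2.67 ± 0.42 (SE, adjusted *P* = 0.000108)), *KRT86* at 0.93, 0.33 and 0.61 and 3.76, 3.14 and 2.96 (2.66 ± 0.40 (SE, adjusted *P* = 8.23e-05)) and *KRT81* at 0.41, 0.45 and 0.33 and 2.89, 3.26 and 2.65 (2.54 ± 0.23 (SE, adjusted *P* = 8.48e-07)). The simple epithelial keratins *KRT8*, *KRT19* and *KRT7* rose by smaller amounts, the first 2 from high levels with DMSO and *KRT7* from a low one. *KRT8* was at 6.60, 6.35 and 6.65 and 8.30, 8.06 and 7.49 (1.42 ± 0.18 (SE, adjusted *P* = 1.32e-05)), *KRT19* at 5.00, 5.09 and 5.57 and 6.49, 6.34 and 6.13 (1.10 ± 0.18 (SE, adjusted *P* = 0.000148)) and *KRT7* at 0.81, 0.46 and 0.52 and 2.49, 1.69 and 1.38 (1.26 ± 0.23 (SE, adjusted *P* = 0.000336)). The call of *KRT19* was lost without library 10. *KRT18*, at 7.41, 7.08 and 7.31 and 8.62, 8.39 and 7.72, had a log2 difference of 0.98 ± 0.21 (SE, adjusted *P* = 0.00146) and was just under the threshold of 1.

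GSI added to TAS1440 separated *KRT15* from the other keratins. Between TAS1440 and TAS1440 plus GSI, 14.7% of all genes were called, and 6 keratins were higher with TAS1440 alone and 1, *KRT15*, was lower, with differences taken as TAS1440 minus TAS1440 plus GSI. *KRT15* was at 6.90, 6.12 and 6.21 with TAS1440 plus GSI, above every library with TAS1440 alone (-2.51 ± 0.42 (SE, adjusted *P* = 0.000304)) and above DMSO by 5.19 ± 0.42 (SE, adjusted *P* = 9.44e-07). *KRT4* was at 0.99, 1.14 and 0.91 with TAS1440 plus GSI (2.88 ± 0.58 (SE, adjusted *P* = 0.00124)), *KRT80* at 7.32, 7.70 and 7.46 (1.78 ± 0.34 (SE, adjusted *P* = 0.000799)) and *KRT81* at 0.35, 1.18 and 1.22 (2.01 ± 0.23 (SE, adjusted *P* = 1.77e-05)), all below every library with TAS1440 alone. *KRT7* was at 0.68, 0.36 and 0.50 (1.34 ± 0.23 (SE, adjusted *P* = 0.00034)).

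*KRT17*, at 4.78, 3.79 and 2.25 with TAS1440 plus GSI (2.37 ± 0.88 (SE, adjusted *P* = 0.0398)), overlapped TAS1440 alone, and its call and that of *KRT86* (1.12 ± 0.40 (SE, adjusted *P* = 0.0353)) were each lost in 4 of 6 fits that left out 1 library, among them that without library 13. *KRT8* (0.98, adjusted *P* = 0.000532) and *KRT18* (0.85, adjusted *P* = 0.00548) were higher with TAS1440 alone by less than the threshold, and *KRT19* differed by 0.05 ± 0.18 (SE, adjusted *P* = 0.853). Relative to DMSO, TAS1440 plus GSI raised 4 keratins, against 9.02% of all genes. Besides *KRT15* these were *KRT80* (1.79 ± 0.34 (SE, adjusted *P* = 0.00139)), *KRT86* (1.54 ± 0.40 (SE, adjusted *P* = 0.0129)) and *KRT19* (1.05 ± 0.18 (SE, adjusted *P* = 0.000652)), of which *KRT86* lost its call without library 11 or 17 and *KRT19* without library 10, 11 or 16. *NOTCH1* was at 1.99, 2.79 and 2.26 with TAS1440 and 6.73, 6.71 and 6.75 with TAS1440 plus GSI, against 0.61, 0.74 and 0.63 with DMSO.

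**Figure D4:**
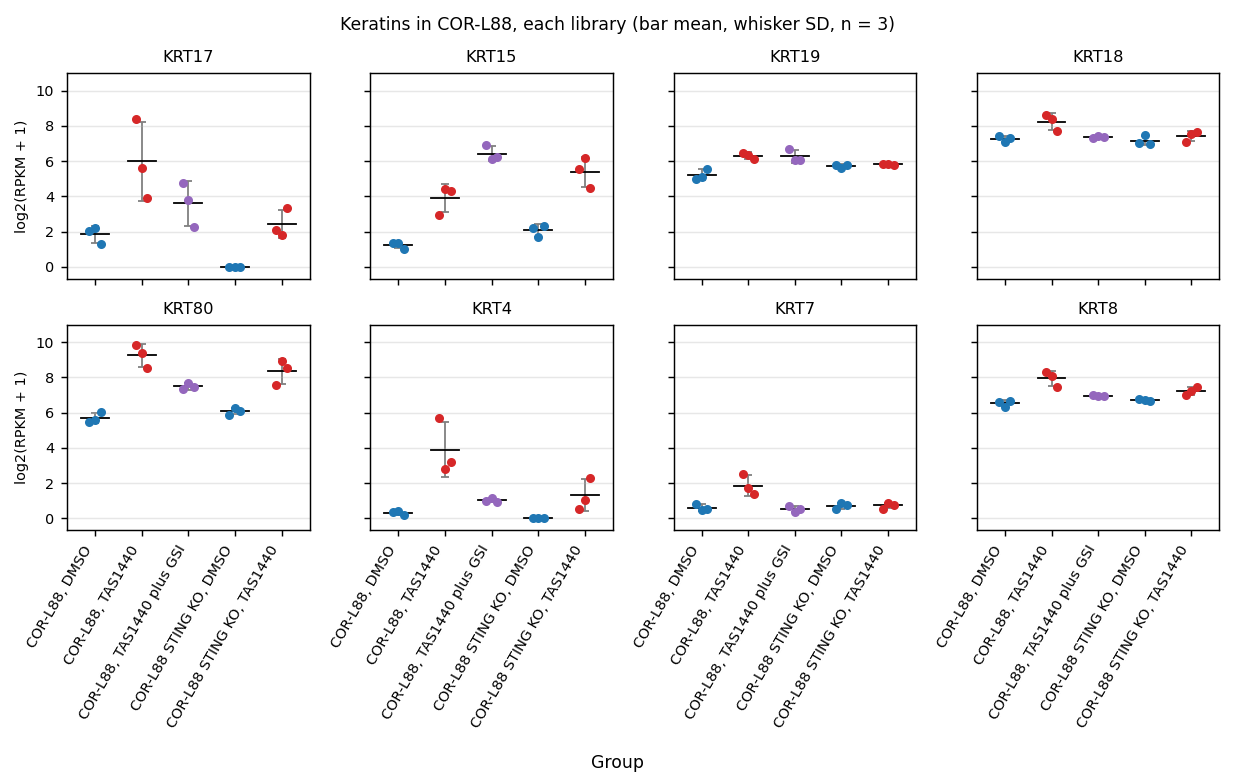
log2(RPKM + 1) of single COR-L88 libraries (points, with a bar at the group mean and whiskers of 1 SD) by treatment and STING KO. *KRT15* is highest with TAS1440 plus GSI (6.12 to 6.90), whereas *KRT80* and *KRT4* are highest with TAS1440 alone, and library 13 is far above the other 2 for *KRT17* and *KRT4*.

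In COR-L88 cells with STING KO, TAS1440 raised 4 keratins, against 16% of all genes. *KRT15* was at 2.20, 1.67 and 2.32 with DMSO and 5.53, 6.16 and 4.50 with TAS1440 (3.33 ± 0.42 (SE, adjusted *P* = 2.6e-05)), *KRT80* at 5.89, 6.29 and 6.10 and 7.57, 8.94 and 8.53 (2.25 ± 0.34 (SE, adjusted *P* = 0.000117)) and *KRT81* at 0.41, 0 and 0 and 2.06, 2.09 and 2.55 (2.10 ± 0.23 (SE, adjusted *P* = 8.31e-06)). *KRT17*, listed at 0 with DMSO and at 2.10, 1.80 and 3.31 with TAS1440 (adjusted *P* = 0.0402), lost its call in all 6 fits that left out 1 library. *KRT8* (0.51, adjusted *P* = 0.0312), *KRT18* (0.27, adjusted *P* = 0.333), *KRT19* (0.09, adjusted *P* = 0.729) and *KRT7* (0.03, adjusted *P* = 0.933) had log2 differences below the threshold. mRNA of *STING1* was at 1.16, 1.09 and 0.96 with TAS1440 in these cells, against 2.54, 2.04 and 2.03 in cells without the KO.

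With DMSO, limma called 1.47% of all genes and 0 keratins between STING KO cells and cells without the KO, with *KRT19* (0.51) and *KRT86* (1.00) at an unadjusted *P* under 0.05. With TAS1440 it called 6.53% of all genes and 4 keratins. *KRT17* (-3.58 ± 0.88 (SE, adjusted *P* = 0.00951)), *KRT4* (-2.59 ± 0.58 (SE, adjusted *P* = 0.00571)) and *KRT7* (-1.13 ± 0.23 (SE, adjusted *P* = 0.00312)) were lower and *KRT15* (1.50 ± 0.42 (SE, adjusted *P* = 0.0189)) was higher in STING KO cells, and *KRT15* lost its call without library 13, 43 or 44. Without library 13 the difference of *KRT17* was -2.36 and that of *KRT4* -1.70, with adjusted *P* values of 0.0268 and 0.00689. The response to TAS1440 differed for *KRT7* (-1.23 ± 0.32 (SE, adjusted *P* = 0.0329)) and *KRT19* (-1.01 ± 0.25 (SE, adjusted *P* = 0.028)), against 4.23% of all genes, and these calls were lost in 6 of 9 and 8 of 12 fits that left out 1 library. *KRT4* and *KRT7* had passed the filter only through libraries with TAS1440.

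In the mouse line KP1, TAS1440 lowered 4 of 6 keratins tested and raised none, against 18.8% of all genes. *Krt7*, which made up 75.1% of keratin RPKM with DMSO at rank 27 among all genes, was at 9.08, 9.13 and 9.53 with DMSO and 0, 1.88 and 6.01 with TAS1440, a log2 difference of -6.62 ± 1.23 (SE, adjusted *P* = 0.00249). *Krt8* was at 6.99, 7.08 and 7.19 and 0.012, 0.65 and 5.77 (-4.94 ± 1.24 (SE, adjusted *P* = 0.0122)), *Krt18* at 6.03, 6.08 and 5.68 and 2.36, 3.83 and 5.29 (-2.10 ± 0.60 (SE, adjusted *P* = 0.0222)) and *Krt17* at 2.17, 2.30 and 1.51 and 0, 0.32 and 0.10 (-1.85 ± 0.23 (SE, adjusted *P* = 0.000234)). The groups did not overlap for any of these 4 genes, which is no separate support, since the genes were chosen as called. Library 6 was the highest TAS1440 library for *Krt7*, *Krt8* and *Krt18*, and without it the log2 differences were -8.31 for *Krt7*, -6.76 for *Krt8*, -2.84 for *Krt18* and -1.84 for *Krt17*, all with adjusted *P* values of 0.00121 or less. The call of *Krt18* was lost without library 1, 2 or 5.

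*Krt19* (0.034, 2.33 and 1.71 with TAS1440, 1.65, 1.81 and 1.41 with DMSO, adjusted *P* = 0.688) and *Krt80* (adjusted *P* = 0.696) did not pass, and *Krt20* did not exceed 0.167 in any library. Of the shared sequence, 26.9% of the windows of *Krt8* also occur in a pseudogene of it. With TAS1440 alone, 2 keratins were called, both lower than with TAS1440 plus GSI, against 16.5% of all genes. *Krt7* was at 8.86, 8.63 and 7.24 with TAS1440 plus GSI, a log2 difference of TAS1440 alone of -5.61 ± 1.23 (SE, adjusted *P* = 0.00701), and *Krt17* at 1.04, 1.38 and 1.69 (-1.23 ± 0.23 (SE, adjusted *P* = 0.00312)). *Krt8*, at 6.33, 5.57 and 4.85, differed by -3.44 ± 1.24 (SE, adjusted *P* = 0.0624) and *Krt18*, at 5.01, 4.53 and 4.18, by -0.75 ± 0.60 (SE, adjusted *P* = 0.382), and without library 6 the count of called keratins was 4. Between TAS1440 plus GSI and DMSO limma called 1.21% of all genes and 0 keratins, with *Krt17*, *Krt18* and *Krt19* at an unadjusted *P* under 0.05 (log2 differences -0.62, -1.36 and -1.14). *Krt8* differed by -1.51 ± 1.24 (SE, adjusted *P* = 0.754).

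**Figure D5:**
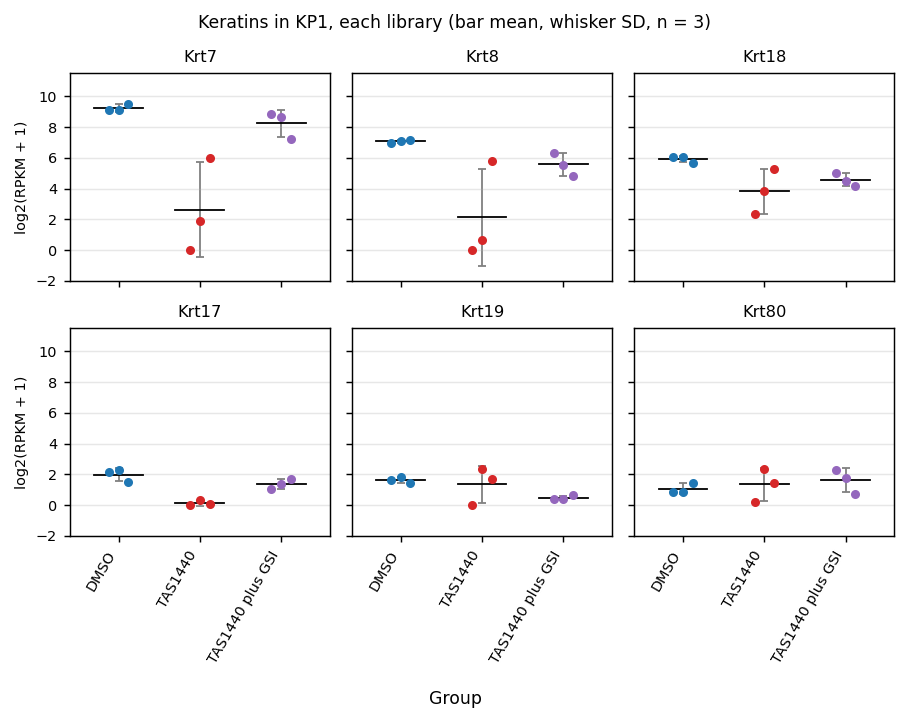
log2(RPKM + 1) of single KP1 libraries (points, with a bar at the group mean and whiskers of 1 SD) by treatment. *Krt7* and *Krt8* are near 0 in 1 TAS1440 library and at 6.01 and 5.77 in library 6, and every TAS1440 library is below every DMSO library for *Krt7*, *Krt8*, *Krt18* and *Krt17*.

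The other cytoplasmic intermediate filaments, 13 genes that include vimentin of mesenchymal cells and the neurofilaments of neurons, held genes called higher and genes called lower in each of 5 comparisons. *VIM* rose with *N1ICD* in H82 (1.23 ± 0.31 (SE, adjusted *P* = 0.00297)), H524 (2.55 ± 0.43 (SE, adjusted *P* = 0.000389)) and H69 (8.62 ± 0.32 (SE, adjusted *P* = 2.71e-08)) and with TAS1440 in COR-L88 (5.81 ± 0.22 (SE, adjusted *P* = 4.8e-10)) and KP1 (*Vim*, 10.41 ± 0.55 (SE, adjusted *P* = 1.96e-06)). In H69 it was at 1.36, 0 and 0 without and 9.06, 9.09 and 9.08 with doxycycline. With *N1ICD*, 1 of 9 tested genes of this list rose and 4 fell in H82, against 27.1% of all genes called. In H524 2 of 8 rose and 3 fell, against 18.6%, and in H69 4 of 9 rose and 1 fell, against 41.8%. With TAS1440, 1 of 6 rose and 1 fell in COR-L88, against 22.8%, and 1 rose and 5 fell in KP1, against 18.8%. The neurofilament gene *NEFM* fell in H82 (-4.53 ± 0.27 (SE, adjusted *P* = 2.79e-10)) and H524 (-2.63 ± 0.39 (SE, adjusted *P* = 0.000146)). The medians of the list were -0.86, -0.43, 0.96, 0.24 and -1.71 in these 5 comparisons, beside medians of all genes tested of -0.0026, -0.018, 0.083, 0.0080 and 0.021.

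Among 18 genes of desmosomes and plakins, the anchors of keratin filaments, 8 of 13 tested rose and 1 fell with TAS1440 in COR-L88 cells (median 1.55), against 22.8% of all genes called, and 5 were higher and 0 lower in TAS1440 than in TAS1440 plus GSI, against 14.7%. *PKP1*, a plakophilin of desmosomal plaques (2.52 ± 0.38 (SE, adjusted *P* = 8.6e-05)), the plakins *PPL* (2.37 ± 0.20 (SE, adjusted *P* = 4.72e-07)) and *EPPK1* (2.18 ± 0.21 (SE, adjusted *P* = 1.59e-06)) and the desmosomal cadherin *DSC2* (2.14 ± 0.29 (SE, adjusted *P* = 2.9e-05)) were higher, and *DSP*, the desmoplakin that binds keratin filaments, was lower (-1.05 ± 0.17 (SE, adjusted *P* = 0.000147)). With *N1ICD* 3 of 11 rose and 2 fell in H82, 3 of 12 rose and 1 fell in H524, and 7 of 13 rose and 4 fell in H69, beside 27.1%, 18.6% and 41.8% of all genes called, and medians of -0.25, 0.33 and 1.02. *DSP* rose in H82 (1.06 ± 0.31 (SE, adjusted *P* = 0.009)) and H524 (1.90 ± 0.37 (SE, adjusted *P* = 0.00126)) and fell in H69 (-3.49 ± 0.10 (SE, adjusted *P* = 6.88e-09)), where *PKP1* rose (5.15 ± 0.05 (SE, adjusted *P* = 2.68e-11)). In KP1 with TAS1440 1 of 9 rose and 3 fell, against 18.8% of all genes called, with *Dsp* at a log2 difference of -2.07 ± 0.23 (SE, adjusted *P* = 0.000122).

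Of 10 epithelial transcription factors, 6 of 9 tested rose and none fell with TAS1440 in COR-L88 cells (median 1.26, against 22.8% of all genes called), led by *EHF* (3.07 ± 0.23 (SE, adjusted *P* = 1.8e-07)) and *KLF5* (2.26 ± 0.10 (SE, adjusted *P* = 2.59e-09)). In H69 with *N1ICD* 4 of 6 fell and none rose (median -2.47, against 41.8% of all genes called), with *ELF3* at -4.60 ± 0.17 (SE, adjusted *P* = 2.84e-08) and *KLF5* at -2.35 ± 0.36 (SE, adjusted *P* = 0.000284). In H82 *KLF5* alone of 3 tested passed (2.76 ± 0.23 (SE, adjusted *P* = 1.93e-08)), against 27.1% of all genes, and in H524 0 of 3 were called, against 18.6%. In KP1 1 of 4 rose and 1 fell, against 18.8%, *Klf4* (2.71 ± 0.32 (SE, adjusted *P* = 0.000178)) and *Elf3* (-3.89 ± 0.31 (SE, adjusted *P* = 1.64e-05)).

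Neuroendocrine markers, which belong to the small cell lung cancer cells themselves, and markers of other cell types moved with the same comparisons. Summed log2 levels of 9 neuroendocrine markers went from 55.5 to 56.7 without to 18.2 to 20.6 with doxycycline in H82 (8 of 8 tested lower), from 61.2 to 65.2 to 43.3 to 51.1 in H524 (8 of 9 lower, 1 higher), from 59.9 to 61.8 to 11.0 to 12.1 in H69 (8 of 9 lower), from 56.2 to 57.2 to 24.7 to 27.7 with TAS1440 in COR-L88 (8 of 9 lower) and from 32.3 to 35.8 to 0.695 to 15.9 in KP1 (7 of 7 lower). Of 5 fibroblast markers, 3, 4 and 4 rose with *N1ICD* in H82, H524 and H69, where their summed levels went from 1.55 to 4.99 to 15.2 to 15.7, from 1.68 to 3.44 to 15.5 to 18.2 and from 7.99 to 8.48 to 33.9 to 34.0, and *COL1A2* was at 0 in all 3 H82 libraries with doxycycline. In COR-L88 none of the 5 passed the filter, with sums up to 3.21 with TAS1440, and in KP1 1 rose, with sums of 4.42 to 15.2. Among mesothelial markers *MSLN* rose in H82 (3.68 ± 0.42 (SE, adjusted *P* = 1.12e-06)) and COR-L88 (4.92 ± 0.23 (SE, adjusted *P* = 2.59e-09)), and among 3 squamous or basal markers *SFN* rose in COR-L88 (3.52 ± 0.23 (SE, adjusted *P* = 5.71e-08)) while *DSG3* did not exceed 0.039 in the 4 human comparisons. Of 5 immune markers, *CD68* alone rose, in COR-L88 (2.04 ± 0.19 (SE, adjusted *P* = 9.68e-07)), and *PTPRC* did not exceed 0.043 in their libraries with doxycycline or TAS1440, and endothelial markers, of which 2 of 3 were in the human table, had sums of at most 0.577 in human and 0.608 in KP1 libraries. The part of other cell types in the keratin values was not tested.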

How the data were processed

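Bulk RNA-Seq values of 60 human and 9 mouse (KP1) libraries were analyzed, in groups of 3 libraries taken from the sample labels. Per the labels, the libraries were made with a stranded mRNA kit, and per the submitters' processing notes and the methods of the study the authors used Cutadapt, STAR, RSEM and edgeR with hg19 and mm10, with scaling factors from edgeR (TMM). The authors deposited log2 values of RPKM + 1 for each library in 2 tables that were normalized separately. Versions and the annotation are not given in the sources used here. Read counts were not used here, so that no count test was run, and depth is known only relative to the other libraries.

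Groups were compared with limma 3.58.1 (R 4.3.3) on the deposited log2 values, with moderated variances and a trend. Each cell line had its own model with 1 mean per group, on genes that reached 1 in 3 or more of its libraries. The tests were two-sided, with Benjamini-Hochberg adjustment across every gene that passed the filter, and a call needed both an adjusted *P* below 0.05 and a log2 difference of 1 or more in size. Differences between responses were contrasts within 1 model, over all 60 libraries where they compare lines. The test was checked on simulated data in which only genes above low levels were changed, so that the check does not cover keratins near the floor. Sums, promoter letters and transcript windows of 50 bases were computed in Python 3.11.15 (pandas 2.3.3, numpy 2.4.6; figures with matplotlib 3.10.9). Alternatives were no filter, a pseudocount of 0.1, quantile normalization, median centring, no trend, only the compared groups, and leaving out each library. Transcript positions are those of GRCh37 and GRCm38 annotations and matched all 52 and 35 symbols.

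The members and lists were chosen with earlier results of these data known. Values in every library were given for the simple epithelial keratins *KRT7*, *KRT8*, *KRT18*, *KRT19* and *KRT20* and for called keratins with a mean of at least 2 in the higher group, up to 6 a comparison by size of the difference; further keratins, such as *KRT14*, *KRT16* and *KRT75*, were given library values after theirs had been seen. Of the lists, up to 4 called genes were named a comparison.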

Additional observations from a re-analysis of the deposited data

Results flagged for a closer look

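Within a cell line, the responses of some keratins differed between 2 settings by limma's test of the difference itself, and the values are differences between log2 differences. In H82 cells with *REST* KO the response to doxycycline was smaller than without the KO for *KRT17* (-2.40), *KRT80* (-2.26), *KRT16* (-1.25) and *KRT4* (-1.05), and in the H82 libraries labelled STING KO it was larger for *KRT4* (1.47). In H524 cells the response to *N1ICD* exceeded that to *REST* for *KRT17* (9.72), *KRT8* (2.37), *KRT75* (1.47) and *KRT16* (1.40) and was below it for *KRT86* (-1.37) and *KRT9* (-1.08). In COR-L88 cells with STING KO the response to TAS1440 was smaller for *KRT7* (-1.23) and *KRT19* (-1.01). Several of these keratins had passed the filter only through libraries with doxycycline or TAS1440, which favored their calls. They were *KRT4* and *KRT16* in H82, *KRT8*, *KRT9*, *KRT16*, *KRT17* and *KRT75* in H524, and *KRT7* in COR-L88. In fits that each left out 1 library, *KRT17* and *KRT80* in H82 *REST* KO cells lost their calls in 8 and 4 of 12 fits, *KRT86* in H524 in 11 of 12, and *KRT7* and *KRT19* in COR-L88 in 6 of 9 and 8 of 12, and with a pseudocount of 0.1 the difference of *KRT17* in H82 *REST* KO cells was 0.0028 (adjusted *P* of 1).

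Between cell lines, the response to *N1ICD* in H69 minus that in H82 was -6.69 for *KRT9*, -6.26 for *KRT19*, -5.81 for *KRT8*, -5.06 for *KRT15*, -4.67 for *KRT17*, -4.57 for *KRT18*, -3.17 for *KRT80*, -1.23 for *KRT83*, -1.06 for *KRT16*, 2.78 for *KRT75* and 5.49 for *KRT5*, all past the test. H69 minus H524 was -6.76 for *KRT9*, -6.58 for *KRT19*, -5.06 for *KRT15*, -3.17 for *KRT17*, -1.21 for *KRT16*, 1.56 for *KRT18*, 1.80 for *KRT80*, 2.22 for *KRT81*, 2.45 for *KRT75* and 6.45 for *KRT5*. H524 minus H82 was -6.13 for *KRT18*, -5.25 for *KRT8*, -4.97 for *KRT80*, -3.48 for *KRT81* and -2.30 for *KRT86*. These 3 sets of values share libraries and are not independent. The calls of *KRT80* and *KRT81* between H69 and H524 were lost without H524 library 23 (1.32 and 1.48) or 27 (1.24 and 1.91), and that of *KRT80* also without H524 library 26 (1.58) or H69 library 49 (1.58).

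Some keratins had log2 differences of opposite sign in COR-L88 and KP1 with TAS1440, with no overlap between TAS1440 and DMSO libraries in either line. How many of all genes do so was not counted, so that the pattern is not shown to be particular to keratins. *KRT18* in COR-L88 was not called. The log2 differences in COR-L88 and KP1 were 1.42 and -4.94 for *KRT8* and *Krt8*, 0.98 and -2.10 for *KRT18* and *Krt18*, 1.26 and -6.62 for *KRT7* and *Krt7*, 4.14 and -1.85 for *KRT17* and *Krt17*, and 3.58 and -0.089 for *KRT4* and *Krt4*. The difference between the lines was not tested, since the tables were normalized separately and the species differ. *Krt4* did not exceed 0.11 in any KP1 library, near the floor, and was not tested there. *KRT80*, the highest keratin of COR-L88 with TAS1440, had log2 differences of 3.57 and, for *Krt80*, 0.29, of the same sign, and *KRT19* had 1.10 and, for *Krt19*, -0.27, with overlapping groups in KP1 for both. With 3 libraries a group, no formal outlier test was made.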

How the results depend on the processing

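Of 134 keratin calls over 31 comparisons, 134 were kept without the variance trend, 128 without the filter, 125 with a pseudocount of 0.1, 124 each with median centring and quantile normalization, and 122 with only the compared groups in the model. With a pseudocount of 0.1 the smaller response of *KRT17* in H82 *REST* KO cells changed sign, from -2.40 to 0.0028 (adjusted *P* of 1), and it lost its call in 8 of 12 fits without 1 library. The cause of these changes was not tested. The count for H524 with *REST* was 2 and became 4 with only the compared groups, that for KP1 TAS1440 plus GSI against DMSO went from 0 to 2, and the count for vector cells against parental cells was 5, 11 with a pseudocount of 0.1 and 3 with only the compared groups. Leaving out each library in turn gave 1 to 2 calls for H524 with *REST*, 4 to 8 for COR-L88 TAS1440 against TAS1440 plus GSI (7 with all libraries), 2 to 4 for COR-L88 TAS1440 plus GSI against DMSO (4), 2 to 4 for KP1 TAS1440 against TAS1440 plus GSI (2), 3 to 6 for H524 *N1ICD* against *REST* with doxycycline (5), 4 to 8 for vector against parental cells (5), 3 to 8 for the KO interactions (7) and 3 to 6 for the H524 interaction (6). The median of all genes was shifted by more than 0.1 in 1 comparison, at -0.11 in the H82 libraries labelled STING KO against *N1ICD* cells without doxycycline, where *KRT8* differed by -1.20. No paired analysis was possible because the labels number the libraries consecutively, so that the groups compared share no number. Depth limits keratins near 0, whose differences depend on the pseudocount and are no bounds.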

Other observations

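A few keratins appeared in single libraries. In KP1, *Krt78*, a type II keratin of stratified epithelia, was at 3.48 in library 8 of TAS1440 plus GSI and at most 0.036 in the other 8 libraries. In the human table, the hair keratin *KRT32* was at 2.05 in library 50 (H69 *N1ICD* cells without doxycycline) and 1.60 in library 18 (COR-L88, TAS1440 plus GSI) and listed at 0 in the other 58 libraries. These genes did not pass the filter and were not tested.

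The ratio of the partner keratins *KRT8* and *KRT18*, in RPKM, is given as the range over the 3 libraries of a group, with no test. In H82 *N1ICD* cells it was 0.217 to 0.600 without and 0.642 to 0.704 with doxycycline, and with *REST* KO it was 0.0350 to 0.0526 and 0.324 to 0.502. In H69 *N1ICD* cells, where the order was the opposite, it was 1.86 to 1.97 without and 1.06 to 1.12 with doxycycline. In the H82 libraries labelled STING KO it was 0.0445 to 0.245 and 0.602 to 0.647, and in H524 *N1ICD* cells 0.0588 to 0.535 and 0.877 to 1.64. In H524 *REST* cells the ranges overlapped, at 0.0863 to 0.185 and 0.0553 to 0.10. In COR-L88 cells it was 0.570 to 0.632 with DMSO, 0.795 to 0.849 with TAS1440 and 0.717 to 0.788 with TAS1440 plus GSI, and with STING KO the ranges with DMSO (0.607 to 0.812) and TAS1440 (0.806 to 0.940) overlapped. In KP1 it was 1.95 to 2.89 with DMSO, 0.00200 to 1.40 with TAS1440 and 1.62 to 2.54 with TAS1440 plus GSI. The overlap of both genes and the pseudogenes of *KRT18* make the ratio uncertain.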
